A study of Mus musculus with 24 samples.

Results

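The stomach of *Trex1*-/- mice was compared with the tongue in animals that received no SN-011, a STING antagonist. The members were chosen by their labels alone, as the 3 stomach and the 3 tongue libraries titled control, which are 6 of the 24 RNA-Seq libraries of the series. *Trex1* encodes a DNA exonuclease, and its loss leaves self DNA that the cGAS-STING pathway can sense. Both groups carry the same knockout, so no wild-type tissue enters the comparison. According to the methods of the study, the knockouts were offspring of heterozygous parents, injections began at 1 month of age, and control mice received a vehicle of 1% Tween 80 in PBS for 2 weeks, whereas the labels call the controls untreated. The SN-011 animals, used below for comparison, received 5 mg/kg 3 times a week for 4 weeks by the labels, whereas the methods of the study give another dose, daily, for 2 weeks. Nothing states that a stomach and a tongue of the same replicate number came from the same mouse, or whether several mice were pooled, so the p-values measure the spread between these libraries.

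The 6 libraries held 16088960 to 17268835 counts on 20535 to 23253 genes. An abundance of 3 counts, the smallest taken as detectable, was 0.174 to 0.186 CPM (counts per 1000000), a limit that covers counting error only. CPM values below were scaled by edgeR's TMM factors, which ran from 0.7964 to 1.1609. Mitochondrial genes took 3.0 to 7.61% of the counts. *Trex1* had 0 counts in all 6 libraries, but the gene overlaps *Atrip*, and reads shared by both may not have been counted, so the absence is no check of the genotype. Replicate 1 of each tissue held 7843 or 13811 counts of the X-linked *Xist* and at most 2 of the Y-linked *Ddx3y*, and replicates 2 and 3 the reverse, which leaves sex balanced between the tissues. Both tissue labels were borne out by defining markers, gastric *Atp4a*, *Pgc* and *Gkn1* for the stomach and lingual *Krt13*, *Krt76* and *Myh4* for the tongue. Features of single libraries that touch the results are given beside them, namely gastric transcripts in tongue replicates 2 and 3, low levels of upper-layer keratinocyte transcripts in tongue replicate 1, and more muscle transcripts in stomach replicate 1.

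The lining of the glandular stomach is a simple columnar epithelium. Its glands hold acid-secreting parietal cells, pepsinogen-secreting chief cells, mucous neck and pit cells and hormone-releasing endocrine cells. The tongue is covered by a stratified squamous epithelium whose basal keratinocytes renew the upper layers, which make keratins of their own, harden into a cornified envelope and form filiform papillae over a body of skeletal muscle. The mouse stomach also has a forestomach lined by squamous epithelium. Plasma cells of the gut wall release dimeric IgA that epithelial cells carry into the lumen. In these bulk samples, fewer cells of a type and less RNA per cell cannot be told apart.

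Of 16872 genes tested, 2590 were higher in the stomach (15.4%) and 2565 higher in the tongue (15.2%) by edgeR's quasi-likelihood test at a Benjamini-Hochberg adjusted p under 0.05. In 5105 of these 5155 genes the stomach and tongue libraries did not overlap, while of all genes tested 23.3% had every stomach library above every tongue library and 24.7% the opposite. The median log2 difference, stomach minus tongue, was −0.002 over all genes. A log2 difference of at least 5 in size was found in 287 genes higher in the stomach and 559 higher in the tongue. Among called genes whose groups did not overlap and whose higher tissue averaged 100 CPM or more, the largest differences on the stomach side were those of the smooth muscle genes *Actg2* and *Cnn1*, the immunoglobulin genes *Igkc*, *Igha* and *Jchain*, the metalloprotease *Adamdec1*, the lectin *Zg16*, the hormone *Gast*, *Phgr1* and the trefoil peptide *Tff2*. On the tongue side they were those of the fast myosin *Myh4*, the keratins *Krt76*, *Krt36*, *Krt24* and *Krt84*, the cornified envelope gene *Sprr1b*, the secreted protein *Bpifa5*, the beta defensin *Defb4*, and *2310002L09Rik* and *2310034C09Rik*.

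**Figure D1:**
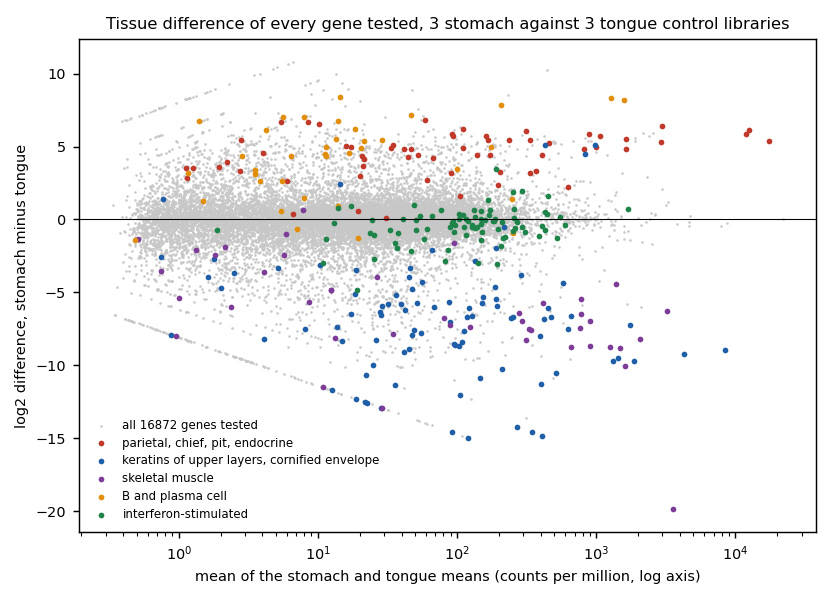
Log2 difference of each of the 16872 genes tested (vertical axis, stomach minus tongue) against the mean of both tissue means in CPM (horizontal log axis), with the genes of 5 sets coloured. The gastric and plasma cell genes lie mostly above 0, the keratin, cornified envelope and skeletal muscle genes mostly below, and the interferon-stimulated genes on both sides of 0, while the straight grey edges are genes with no or hardly any counts in 1 tissue, whose fitted difference depends on the prior count.

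Scaled per kilobase of exon, the most abundant nuclear transcripts of the stomach were *Gkn2* at 29698 ± 16069.8 CPM per kb (mean ± SD, n = 3), *Pgc* at 24582 ± 14158 and *Gkn1* at 19849 ± 14948. Those of the tongue were *Krt13* at 9308 ± 6865, *Acta1* at 4151 ± 1086 and *Krt4* at 4015 ± 3003. Neighbours in either order differed by less than the larger of their SDs, so the order within a tissue is a description.

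Most tested genes of each of the 4 gastric gland cell types were higher in the stomach. *Atp4a* (ENSMUSG00000005553, GRCm38 chromosome 7, 30712209 to 30725534), the catalytic subunit of the parietal cell proton pump, stood at 3000.2, 3194 and 3279.9 CPM in stomach replicates 1 to 3 and at 0.783, 249.7 and 74.6 CPM in tongue replicates 1 to 3. The stomach values lay close together, whereas the tongue values ranged from near the limit of detection to several percent of the stomach level. The log2 difference of *Atp4a* was 4.87 ± 1.51 (± SE here and below), with an adjusted p of 0.0434. The beta subunit *Atp4b* differed by 4.85 ± 1.46 (adjusted p = 0.0384), and *Gif*, intrinsic factor, by 4.23 ± 1.28 (adjusted p = 0.039). The chloride transporter *Slc26a9* was at 147, 165 and 165 CPM against 11.7, 52.9 and 89.2 CPM and was not called (adjusted p = 0.0788). All 19 parietal cell genes were tested, 17 were higher in the stomach and 0 in the tongue, with a median of 4.23. Of the 16 with at least 10 counts in every library, a filter that does not favour the high tissue, 14 were higher in the stomach, where 14.4% of all such genes were.

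Chief and mucous neck cell genes included the most abundant enzyme precursor of the stomach. *Pgc* (ENSMUSG00000023987, chromosome 17, 47726842 to 47734482), pepsinogen C, was at 56195, 27626 and 18537 CPM in the stomach and 4.91, 1496 and 919 CPM in the tongue. The groups did not overlap, and the difference was 5.40 ± 1.74 (adjusted p = 0.0486). *Tff2*, a trefoil peptide of neck cells, was at 10791, 4287 and 2477 CPM against 3.44, 126 and 81.4 CPM (6.38 ± 1.36, adjusted p = 0.00984). The pepsinogen *Pga5* and the gland mucin *Muc6* had differences of 4.44 ± 1.75 and 3.31 ± 1.44 that missed the threshold (adjusted p = 0.0932 and 0.123), although neither overlapped between tissues. *Muc6* was at 363, 1370.4 and 269.7 CPM in the stomach and at 0.626, 149 and 51.7 CPM in the tongue. Of 12 genes on this list, 11 were tested and 8 were higher in the stomach (median 4.45), or 72.7% beside 15.4% of all genes. So were 4 of the 5 with at least 10 counts in every library, where 14.4% of all such genes were.

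Surface mucous pit cells make gastrokines and the mucin *Muc5ac*. *Gkn1* (ENSMUSG00000030050, chromosome 6, 87345650 to 87350942) was at 45555, 19578 and 9301 CPM in the stomach and 13.2, 495 and 538 CPM in the tongue (6.15 ± 1.51, adjusted p = 0.0174). *Muc5ac* was at 3288, 1691 and 860.4 CPM against 14.8, 57.9 and 112 CPM (4.98 ± 0.89, adjusted p = 0.0048). Stomach replicate 1 was the highest for both, and the 3 stomach libraries differed among themselves by up to several fold. The trefoil peptide *Tff1* differed by 6.22 ± 0.71 (adjusted p = 0.000831), and *Capn9*, a stomach calpain, by 5.85 ± 0.59 (adjusted p = 0.000527). All 14 matched pit cell genes were tested and all 14 were higher in the stomach (median 5.58), beside 15.4% of all genes. They include all 10 with at least 10 counts in every library, where 14.4% of all such genes were higher in the stomach.

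Most endocrine genes tested were higher in the stomach, and levels varied among its libraries. *Gast*, gastrin of the antral G cell, was at 285, 58.3 and 4.76 CPM in the stomach, and at 1.04, 1.25 and 0.703 CPM in the tongue (6.85 ± 1.39, adjusted p = 0.0079). The antral transcription factors *Nkx6-3* (38.6, 27.3 and 3.36 CPM in the stomach) and *Pdx1* (13.3, 8.82 and 0.828 CPM) were likewise lowest in stomach replicate 3. *Ghrl*, ghrelin of the oxyntic gland, was at 427, 359 and 196 CPM against 1.20, 12.6 and 8.90 CPM (5.44 ± 0.84, adjusted p = 0.00267), and *Sst*, somatostatin, differed by 5.74 ± 1.21 (adjusted p = 0.00933). *Hdc*, the histamine-forming enzyme that mast cells also make, was at 26.2, 32.7 and 9.83 CPM against 18.5, 17.7 and 10.8 CPM and was not called (adjusted p = 0.405). Of 20 endocrine genes, 17 were tested and 14 were higher in the stomach (median 4.44), or 82.4% beside 15.4% of all genes. So were 6 of the 8 with at least 10 counts in every library, where 14.4% of all such genes were.

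The keratins of simple epithelia followed the gastric genes. *Krt8* was at 6686, 4719 and 2697 CPM in the stomach and 3.65, 146 and 113 CPM in the tongue (5.74 ± 1.27, adjusted p = 0.0112). *Cldn18*, a tight junction claudin of the stomach, differed by 5.27 ± 0.97 (adjusted p = 0.00533), and *Epcam* by 2.77 ± 0.40 (adjusted p = 0.00197). In this list 15 of 20 genes tested were higher in the stomach and 1 in the tongue, 75.0% and 5.0% beside 15.4% and 15.2% of all genes. The 1 in the tongue was the claudin *Cldn4*, low in tongue replicate 1 (2.95, 2.16 and 1.91 CPM against 3.24, 87.5 and 117 CPM) and not called without stomach replicate 2.

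Gastric transcripts were unequally spread over the tongue libraries. On a scale set over all 24 libraries, the 5 marker genes of chief and neck cells had a median of 0.0609% of their mean stomach level in tongue replicate 1, 4.54% in replicate 2 and 2.00% in replicate 3. For the 5 pit cell markers these medians were 0.138%, 2.32% and 2.22%. In control muscle, the chief and neck cell medians were 0.0541%, 1.64% and 0.538% in replicates 1 to 3, and in control heart they were 0.0355%, 5.36% and 0.524%. The same genes were therefore above replicate 1 in replicates 2 and 3 of 3 tissues, none of which holds gastric glands, while the median in each SN-011 tongue was 0.0703 to 0.131%. *Actg2*, a smooth muscle gene of the stomach wall, was at 0.996, 0.608 and 0.317 CPM in the 3 tongue controls on this scale, with no rise in replicates 2 and 3. The part of these transcripts in the tissue difference was not tested directly. Without tongue replicates 2 and 3, an alternative chosen after seeing the data, *Atp4a* differed by 11.96 (adjusted p = 0.00386), *Pgc* by 12.76 (adjusted p = 0.0121) and *Muc6* by 10.04 (adjusted p = 0.0145). All of these are larger than with the 3 tongues, and the single remaining tongue library is assumed to vary like the others. *Atp4a*, *Atp4b* and *Pgc* lost their calls when any library other than tongue replicate 1 was left out, with adjusted p up to 0.132, 0.119 and 0.133.

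**Figure D2:**
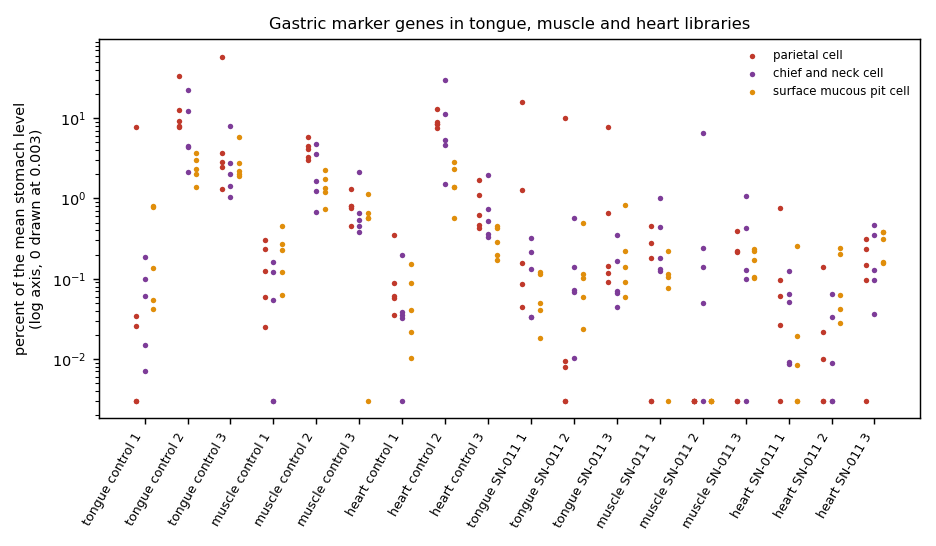
Level of 5 marker genes each of parietal, chief and neck, and pit cells in every tongue, muscle and heart library, as a percent of the mean of the stomach libraries of the same treatment (vertical log axis, 0 drawn at 0.003, 1 point per gene). Control replicates 2 and 3 of the tongue lie mostly near 1 to 10%, with *Muc6* (22.7%), *Gif* (12.8%) and *Pga5* (12.2%) higher in replicate 2. Control replicate 1 and the SN-011 libraries lie mostly below 1%, and the high parietal point in each tongue library is *Slc26a9*.

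**Figure D3:**
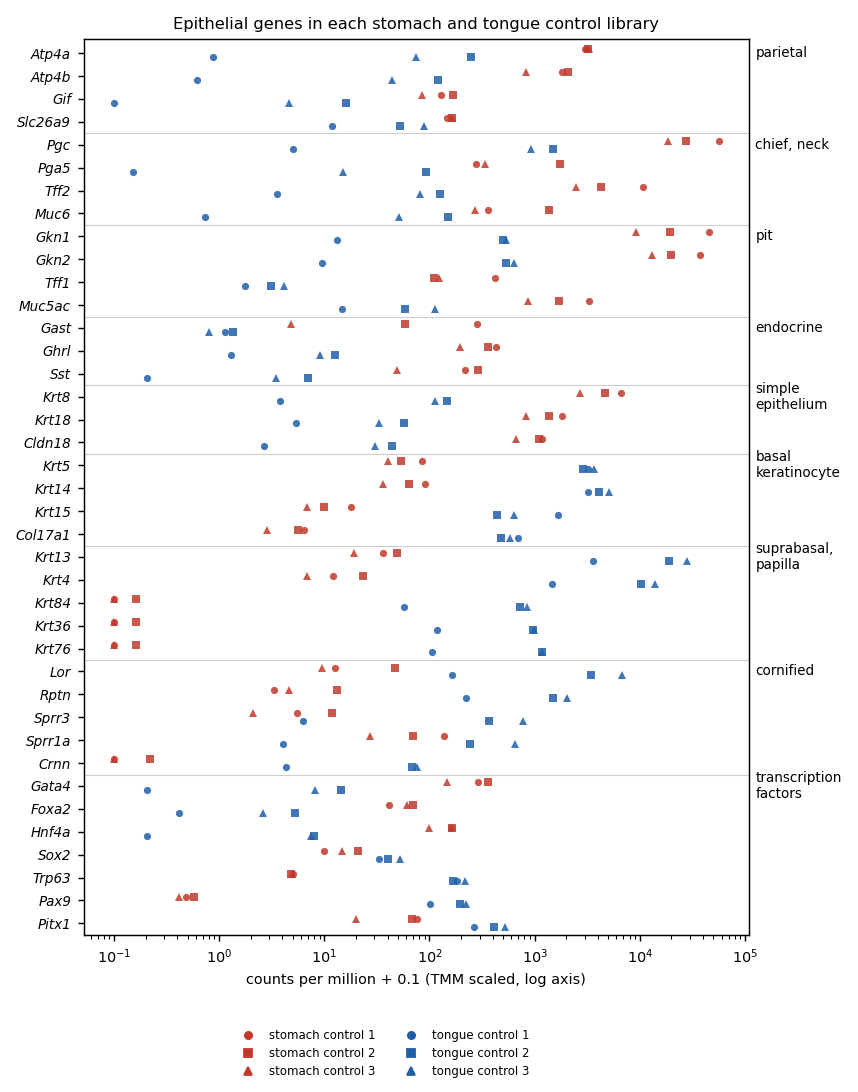
CPM plus 0.1 (horizontal log axis) of epithelial marker genes in each library, with red for the stomach, blue for the tongue and the marker shape for the replicate. Gastric genes lie to the right in the stomach and squamous genes in the tongue, and the circle of tongue replicate 1 is the lowest tongue value both for most gastric genes and for most keratins of the upper layers.

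The squamous genes showed the opposite pattern. *Krt5* (ENSMUSG00000061527, chromosome 15, 101707070 to 101712898), which pairs with *Krt14* in basal keratinocytes, was at 84.9, 53.8 and 40.4 CPM in the stomach and 3239.9, 2869 and 3645 CPM in the tongue (−5.77 ± 0.53, adjusted p = 0.000441). *Krt14* differed by −6.04 ± 0.61 (adjusted p = 0.000545), and *Col17a1*, a collagen of the hemidesmosome, by −6.92 ± 0.47 (adjusted p = 0.000261). The 3 tongues were alike for these genes, and none of their stomach values reached the tongue range. *Itgb4*, a hemidesmosome integrin that simple epithelia also make, was at 208, 188 and 108 CPM against 402, 303 and 273 CPM and was not called (adjusted p = 0.0661). Of 18 basal keratinocyte genes, 12 were higher in the tongue and 0 in the stomach (median −2.54). These are 66.7% and 0% of the list, beside 15.2% and 15.4% of all genes. *Krt5* had 0 CPM in all control muscle and heart libraries.

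Keratins of the upper layers and of filiform papillae had the largest median difference of any list with all 6 libraries. Without tongue replicates 2 and 3 the keratin list's median was −6.38, and the chief and neck cell list had the largest (10.28). *Krt13* (ENSMUSG00000044041, chromosome 11, 100117327 to 100121566), the main keratin of the upper layers of mucosal squamous epithelium, was at 35.99, 49.03 and 18.99 CPM in the stomach and 3599.9, 18869.7 and 28379 CPM in the tongue (−8.93 ± 1.18, adjusted p = 0.00145). Its partner *Krt4* differed by −9.26 ± 1.22 (adjusted p = 0.00144). *Krt76* (ENSMUSG00000075402, chromosome 15, 101884351 to 101892920), a keratin of the palate and tongue surface, had 1 count in the 3 stomachs together and 107, 1165 and 1169 CPM in the tongue, a ratio of 38000 with a 95% counting interval of 6820 to 1500000. The hair-type keratins *Krt36* (119, 970.1 and 993 CPM in the tongue) and *Krt84* (56.6, 729 and 841 CPM) also had 1 count each in the stomachs together. *Krt24*, *Krt31*, *Krt34* and *Krt35* had none, and against a limit of 3 counts over the group they were at least 2930-, 711-, 888- and 677-fold higher in the tongue. Of 28 such keratins 26 were tested, 23 were higher in the tongue, and 1 was higher in the stomach, *Krt1* (23.4, 37.7 and 12.3 CPM against 3.08, 2.63 and 8.03 CPM, adjusted p = 0.015), named after its values were seen. None of these keratins was called higher in the stomach without tongue replicate 2 or without stomach replicate 2. The same held with the replicate number as a block and when a log2 difference of at least 1 was tested. The list's median was −9.38, or −9.06 with genes at the limit of detection set to their bound. Of the 11 with at least 10 counts in every library, 8 were higher in the tongue, where 13.8% of all such genes were.

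Cornified envelope genes were mostly higher in the tongue but were unequal among its libraries. *Lor* (ENSMUSG00000043165, chromosome 3, 92080271 to 92083142), loricrin of the envelope, was at 12.6, 46.9 and 9.47 CPM in the stomach and 164, 3432 and 6823 CPM in the tongue (−7.24 ± 1.47, adjusted p = 0.00789). *Rptn*, repetin, was at 3.26, 13.2 and 4.55 CPM against 222, 1500.1 and 2038 CPM (−7.48 ± 1.07, adjusted p = 0.00196). *Sprr3* was at 5.35, 11.8 and 2.02 CPM against 6.16, 372 and 769 CPM, so that tongue replicate 1 lay within the stomach range, and *Sprr1a* was at 137, 69.6 and 26.96 against 3.97, 245 and 655 CPM and was not called (adjusted p = 0.3). Of 79 matched genes 66 were tested, 56 were higher in the tongue and 2 in the stomach (median −6.13). These are 84.8% and 3.03% of those tested, beside 15.2% and 15.4% of all genes. Of the 31 with at least 10 counts in every library 27 were higher in the tongue, where 13.8% of all such genes were. The pair higher in the stomach were *Sprr2a1* (1187, 1049.6 and 276 CPM against 0.678, 27.8 and 45.2 CPM) and *Sprr2a3* (3425, 1829 and 483 against 3.44, 79.1 and 84.8 CPM), near-identical copies between which reads cannot be divided with certainty, named after their values were seen. No cornified envelope gene was called higher in the stomach without tongue replicate 2, and 1 was without stomach replicate 2. With the replicate number as a block, 0 were higher in the stomach and 46 in the tongue. Many of these genes sit together in the epidermal differentiation complex, here chromosome 3 from 90692632 to 93526287, where 50 of 104 genes were tested, 38 were higher in the tongue and 3 in the stomach, the last being *9130204L05Rik* besides the *Sprr2a* pair. The stomach count was 1 without tongue replicate 2. Of the 18 with at least 10 counts in every library, 11 were higher in the tongue and 2 in the stomach, where 13.8% and 14.4% of all such genes were. With tongue replicate 1 as the only tongue, the counts over all genes tested in the complex were 6 and 4. The complex summed to 7686, 5851 and 2105 CPM in the stomachs and 919, 10583 and 19287 CPM in the tongues, so that tongue replicate 1 lay below every stomach.

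Tongue replicate 1 stood apart from the other tongues in these layers. Upper-layer keratins summed to 7113, 46727 and 65870.5 CPM in tongue replicates 1 to 3 and cornified envelope genes to 3091, 20561 and 35063 CPM, whereas basal keratinocyte genes summed to 11698, 11968 and 14597 CPM. It was also the only tongue library with *Xist*, and sex, gastric transcripts and upper-layer level cannot be told apart over the 3 control libraries. The SN-011 tongues held at most 2 counts of *Xist*, and their chief and neck cell medians were 0.0703 to 0.131% of the stomach level. The part of sex was not tested. With tongue replicate 1 alone against the 3 stomachs, the median difference was −6.38 over 26 upper-layer keratins and −3.15 over 65 cornified envelope genes. *Sprr3* (a difference of 0.053) and *Lor* were not called there. Without tongue replicate 1, 68 of 75 cornified envelope genes then tested were higher in the tongue. *Sprr3* lost its call when any library other than tongue replicate 1 was left out.

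Cell junction genes divided by epithelial type. *Dsp*, desmoplakin of all desmosomes, was at 225, 253 and 213 CPM in the stomach and 477, 1468 and 1875 CPM in the tongue (−2.47 ± 0.53, adjusted p = 0.0102). The squamous cadherins *Dsg3* and *Dsc3* differed by −7.28 ± 0.87 and −6.39 ± 0.35 (adjusted p = 0.001 and 0.0002), and the connexin *Gjb2* by −6.07 ± 1.18 (adjusted p = 0.00656). Of 20 genes, 15 were higher in the tongue (75.0%, beside 15.2% of all genes) and 3 in the stomach, the desmosomal *Dsg2* (3.31) and *Pkp2* (4.29) and the connexin *Gjb1* (4.94), which simple epithelia use, named after their values were seen. Of the 12 with at least 10 counts in every library, 7 were higher in the tongue and 3 in the stomach, and the list's median went from −5.52 to −2.29.

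The transcription factors of both epithelia were divided evenly. *Gata4*, a factor of the glandular foregut, was at 291, 360.3 and 146 CPM in the stomach and 0.104, 14.2 and 8.03 CPM in the tongue (5.16 ± 1.22, adjusted p = 0.0148). *Foxa2* and *Hnf4a* differed by 4.44 ± 0.80 and 4.79 ± 1.06 (adjusted p = 0.00489 and 0.0113). *Trp63* (ENSMUSG00000022510, chromosome 16, 25683763 to 25892102), the regulator of stratified epithelia, was at 4.96, 4.68 and 4.81 CPM against 182, 169 and 216 CPM (−5.29 ± 0.26, adjusted p = 0.0002), with libraries of a tissue close to one another. *Pax9*, a factor of tongue and palate development, had the largest difference of the factors higher in the tongue, at 0.388, 0.480 and 0.310 CPM against 99.996, 195 and 224 CPM (−8.77 ± 0.48, adjusted p = 0.0002). *Sox2*, a factor of the foregut and of taste and basal cells, was higher in the tongue by a smaller difference (−1.48 ± 0.33, adjusted p = 0.0123), as was *Pitx1* (−2.87 ± 0.54, adjusted p = 0.00595). Of 37 factors tested, 15 were higher in the stomach and 15 in the tongue, 40.5% each way beside 15.4% and 15.2% of all genes.

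Promoters of genes that lead the 2 epithelia are shown as a description. RefSeq's promoter table for GRCm38.p6 held a start for 46 of the 65 gastric list genes and 84 of the 107 upper-layer keratin and cornified envelope genes. The 250 bases before the start are printed, with capitals for matches on either strand. A match to the core promoter box was the run TATAAA. The motif of GATA factors was taken as AGATAA. The motif of AP-1, the dimer of Fos and Jun proteins, was taken as TGANTCA, with N for any base. The gastric genes are *Gkn1* (chr6:87350916-87351165, minus strand), *Gkn2* (chr6:87373115-87373364, plus strand) and *Pgc* (chr17:47726592-47726841, plus strand), and the squamous genes *Krt13* (chr11:100121567-100121816, minus strand), *Krt76* (chr15:101892921-101893170, minus strand) and *Lor* (chr3:92083143-92083392, minus strand). *Krt13* has 2 starts in the table, of which the upstream is given.
*Gkn1*: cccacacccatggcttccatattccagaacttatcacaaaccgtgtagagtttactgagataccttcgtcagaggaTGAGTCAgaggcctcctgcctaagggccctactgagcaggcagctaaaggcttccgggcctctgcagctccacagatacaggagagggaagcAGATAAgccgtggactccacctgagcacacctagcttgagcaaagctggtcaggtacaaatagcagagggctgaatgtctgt
*Gkn2*: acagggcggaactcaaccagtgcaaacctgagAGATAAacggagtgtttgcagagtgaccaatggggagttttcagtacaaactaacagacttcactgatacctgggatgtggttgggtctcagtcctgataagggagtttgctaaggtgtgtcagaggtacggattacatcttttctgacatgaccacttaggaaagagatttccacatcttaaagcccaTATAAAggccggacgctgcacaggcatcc
*Pgc*: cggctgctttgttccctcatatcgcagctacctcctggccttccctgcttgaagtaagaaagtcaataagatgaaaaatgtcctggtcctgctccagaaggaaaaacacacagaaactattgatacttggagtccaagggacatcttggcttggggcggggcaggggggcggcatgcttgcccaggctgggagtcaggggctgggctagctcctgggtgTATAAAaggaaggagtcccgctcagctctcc
*Krt13*: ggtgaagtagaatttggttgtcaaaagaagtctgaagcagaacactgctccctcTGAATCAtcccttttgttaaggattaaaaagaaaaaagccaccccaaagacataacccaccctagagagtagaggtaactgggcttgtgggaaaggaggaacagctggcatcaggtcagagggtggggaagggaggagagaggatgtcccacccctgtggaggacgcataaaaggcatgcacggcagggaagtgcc
*Krt76*: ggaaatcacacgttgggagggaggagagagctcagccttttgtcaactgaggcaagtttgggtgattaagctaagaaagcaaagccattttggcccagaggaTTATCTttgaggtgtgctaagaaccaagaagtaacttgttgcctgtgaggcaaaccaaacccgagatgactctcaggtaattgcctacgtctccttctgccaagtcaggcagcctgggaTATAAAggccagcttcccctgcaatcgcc
*Lor*: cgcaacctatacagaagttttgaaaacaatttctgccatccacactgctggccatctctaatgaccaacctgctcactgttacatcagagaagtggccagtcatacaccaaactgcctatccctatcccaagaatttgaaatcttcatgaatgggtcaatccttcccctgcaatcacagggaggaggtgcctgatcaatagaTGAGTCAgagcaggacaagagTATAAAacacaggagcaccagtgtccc
The TATA box of *Gkn2* began 29 bases before the start, that of *Pgc* 31, that of *Krt76* 29 and that of *Lor* 27. The AP-1 match of *Lor* began 48 bases before the start, and those of *Krt13* and *Gkn1* 196 and 174. AGATAA matched in *Gkn1*, *Gkn2* and *Krt76*. Of the 92 promoters of the squamous genes, 32.6% held the AP-1 motif, 34.8% the TATA box and 10.9% the GATA motif. Of all 32851 promoters in the table, 6.75%, 12.4% and 9.99% did. Of the 59 gastric promoters, 11.9% held the AP-1 motif, 20.3% the TATA box and 16.9% the GATA motif, against 9.99% of all promoters for the last. A match of letters is a description and shows no binding.

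The muscle of the 2 organs was of different kinds. *Myh4* (ENSMUSG00000057003, chromosome 11, 67238029 to 67260446), the fast IIb myosin heavy chain, was at 7762, 8309.6 and 5359 CPM in the tongue and had no count in any stomach, which makes it at least 116000-fold higher against 3 counts over the group. *Ckm*, muscle creatine kinase, was at 34.6, 2.64 and 5.69 CPM in the stomach and 1766, 2205 and 1375 CPM in the tongue (−6.97 ± 1.09, adjusted p = 0.00286). *Acta1*, skeletal alpha actin, was at 245, 2.28 and 1.81 CPM against 7822, 6754 and 4549.8 CPM (−6.26 ± 1.95, adjusted p = 0.0433). Stomach replicate 1 thus held far more *Acta1* than the other stomachs, and *Tnnt3* (37.9, 1.68 and 2.02 CPM in the stomach) and *Mylpf* (42.6, 2.82 and 5.38 CPM) were highest in it too, with *Myh4* at 0. Of 43 skeletal muscle genes tested, 35 were higher in the tongue and 0 in the stomach (median −6.52, or −6.41 at the bounds). These are 81.4% and 0% of those tested, beside 15.2% and 15.4% of all genes. Without stomach replicate 1 the tongue count was 42 of 44. Of the 15 genes with at least 10 counts in every library 14 were higher in the tongue, where 13.8% of all such genes were.

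Most smooth muscle genes tested were higher in the stomach. *Actg2* (ENSMUSG00000059430, chromosome 6, 83512905 to 83536265), the gamma actin of visceral smooth muscle, was at 1742, 242 and 684 CPM against 1.10, 0.688 and 0.351 CPM (10.26 ± 1.02, adjusted p = 0.000521). *Myh11*, the smooth muscle myosin, was at 1504, 287 and 690.3 CPM against 25.2, 13.6 and 8.14 CPM (5.72 ± 0.78, adjusted p = 0.00163). Stomach replicate 1 was again the highest. *Kit* and *Ano1*, markers of pacemaker cells of the gut wall that *Kit* shares with mast cells, differed by 1.30 ± 0.40 and 1.93 ± 0.24 (adjusted p = 0.0419 and 0.00114). Of 23 genes, 16 were higher in the stomach and 0 in the tongue (median 2.63), or 69.6% and 0% beside 15.4% and 15.2% of all genes. Of the 18 with at least 10 counts in every library 11 were higher in the stomach, where 14.4% of all such genes were. The list summed to 12231, 2493 and 4895 CPM in the stomachs and 3005, 2710.2 and 2221 CPM in the tongues, so that stomach replicate 2 lay within the tongue range. Without tongue replicates 2 and 3 the stomach count was 6, and without stomach replicate 1 the tongue count was 2.

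Among genes of enteric neurons and glia, more were called higher in the stomach than in the tongue, and their summed levels overlapped. The neuropeptide *Vip* was at 33.5, 14.8 and 69.02 CPM against 3.97, 2.25 and 0.762 CPM (4.06 ± 0.74, adjusted p = 0.00519). *Nos1*, which marks inhibitory enteric neurons and is also made by skeletal muscle, went the other way at 7.29, 4.14 and 14.8 CPM against 57.7, 78.5 and 72.6 CPM (−2.99 ± 0.46, adjusted p = 0.00267). Of 27 genes tested, 15 were higher in the stomach and 4 in the tongue, among them *Nos1*, *Gdnf* and *Tubb3*. These are 55.6% and 14.8% of the list, beside 15.4% and 15.2% of all genes. The tongue count was 2 without tongue replicate 2, tongue replicate 3 or stomach replicate 2. Of the 13 with at least 10 counts in every library, 3 were higher in each tissue (median 0.35), where 14.4% and 13.8% of all such genes were. The list summed to 404, 149 and 366 CPM in the stomachs and 287, 267 and 261 CPM in the tongues.

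Most taste and gland genes were too low to test, and *Gnat3*, *Lipf* and *Dcpp3* were at or near 0 in the tongue. *Tas1r3*, a taste receptor subunit, was at 2.56, 3.003 and 3.10 CPM in the tongue and 0.388, 1.5002 and 1.03 CPM in the stomach (adjusted p = 0.0812), and the taste G protein *Gnat3* was at 0.0522, 0.501 and 0.586 CPM and too low to test. *Trpm5*, an ion channel of taste cells and tuft cells, was higher in the stomach (12.3, 29.5 and 20.5 CPM against 0.209, 2.75 and 1.58 CPM, 3.79 ± 0.78, adjusted p = 0.0086). Of 27 taste genes 11 were tested, with 4 higher in the stomach (*Trpm5*, *Itpr3*, *Kcnq1* and *Snap25*) and 1 in the tongue (*Tas1r1*), or 36.4% and 9.09% beside 15.4% and 15.2% of all genes. No taste gene was called higher in the tongue when any library other than stomach replicate 2 was left out. *Lipf* and *Dcpp3*, of lingual glands, had no counts. Of 28 gland genes 8 were tested, with 25% called each way beside 15.4% and 15.2% of all genes. *Bpifb1* and *Obp2a* were higher in the stomach and *Wfdc12* and *Fxyd2* in the tongue. These counts were 1 and 1 without tongue replicate 1 or 2, 1 and 0 without stomach replicate 2, and 2 and 1 without stomach replicate 3. Of 17 genes of the major salivary glands 6 were tested, with *Klk1*, *Aqp5* and *Bhlha15* higher in the stomach and 3 in the tongue, among them *Klk1b26* and *Egf*. These are 50.0% each way, beside 15.4% and 15.2% of all genes. Only 1 of the 6 had at least 10 counts in every library, and it was higher in the tongue.

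Most tested genes of B cells, plasma cells and IgA transport were higher in the stomach. *Igha* (ENSMUSG00000095079, chromosome 12, 113254830 to 113260236), the IgA heavy chain constant region, was at 3250.2, 3954 and 2316 CPM in the stomach and 3.50, 24.03 and 5.10 CPM in the tongue (8.19 ± 1.00, adjusted p = 0.00107). *Jchain*, which joins IgA into dimers, was at 247, 614 and 385 CPM against 1.20, 3.32 and 0.762 CPM (7.88 ± 0.74, adjusted p = 0.000441). *Pigr*, the epithelial receptor that carries dimeric IgA, was at 308, 410.4 and 296 CPM against 0.574, 19.1 and 12.2 CPM (4.99 ± 1.03, adjusted p = 0.00837). Every tongue library was far below every stomach library for these genes, and tongue replicate 2 was the highest tongue for all 3. Among the tongues, replicate 2 also had the highest sums of parietal, chief and neck, and endocrine cell genes, but not of pit cell genes. *Ighm*, the IgM heavy chain, differed less (69.3, 188 and 293 CPM against 20.6, 17.1 and 11.4 CPM, 3.49 ± 0.54, adjusted p = 0.00273), and *Cd79a*, of the B cell receptor, by 5.35 ± 0.50 (adjusted p = 0.000441). *Igkc*, the kappa constant region, was at 2098, 3905 and 1713 CPM against 4.33, 14.02 and 5.62 CPM, and it overlaps *Gm30211* on the same strand. Of 37 B and plasma cell genes tested out of 41, 30 were higher in the stomach and 0 in the tongue (median 4.47). These are 81.1% and 0% of those tested, beside 15.4% and 15.2% of all genes. Among the 20 with at least 10 counts in every library, 14 were higher in the stomach, where 14.4% of all such genes were. Without tongue replicate 1, the counts were 28 in the stomach and 2 in the tongue, of 39 tested.

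Most T cell genes were not called, and nearly all that were called were higher in the tongue. *Cd3e*, of the T cell receptor complex, was at 8.53, 6.78 and 6.36 CPM in the stomach and 5.74, 15.6 and 12.7 CPM in the tongue, overlapping ranges that gave no call (adjusted p = 0.288). *Cd8a* was not called either (adjusted p = 0.57). *Gzmb*, a cytotoxic granule protease, was at 4.27, 8.28 and 5.74 CPM against 20.6, 31.1 and 14.5 CPM (−1.85 ± 0.40, adjusted p = 0.01), and *Ifng*, interferon gamma, at 0.543, 0.300 and 0.517 CPM against 2.14, 6.95 and 4.16 CPM (−3.27 ± 0.63, adjusted p = 0.00642). *Cd5*, a T cell surface receptor, was higher in the tongue (−2.77 ± 0.28, adjusted p = 0.000569). Of 51 genes tested, 14 were higher in the tongue and 1 in the stomach, 27.5% and 1.96% of the list beside 15.2% and 15.4% of all genes (median −0.79), and the tongue count was 5 without tongue replicate 2 and 8 without stomach replicate 2.

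Myeloid genes differed for a minority. *Adgre1*, F4/80 of macrophages, was at 12.6, 5.88 and 17.2 CPM against 37.7, 21.6 and 14.6 CPM and was not called (adjusted p = 0.142). *Csf1r*, the macrophage growth factor receptor, was higher in the tongue (−0.93 ± 0.29, adjusted p = 0.0412), a call that did not hold without tongue replicates 1 or 2 or stomach replicates 2 or 3. *Cd207*, langerin of the Langerhans cells of squamous epithelium, was at 0.0776, 0.180 and 0 CPM against 1.83, 2.63 and 4.22 CPM (−4.996 ± 0.92, adjusted p = 0.00532). Of 41 macrophage and dendritic cell genes, 8 were higher in the tongue and 2 in the stomach, *Tlr4* and *Plac8*. These are 19.5% and 4.88% of the list, beside 15.2% and 15.4% of all genes tested. The tongue count was 6 to 12 with 1 library left out, and the stomach count was 1 without any library other than stomach replicate 3. Neutrophil genes were few, with 15 of 33 tested, 6 higher in the tongue and 2 in the stomach, *Cd177* and *Ltf*. These are 40.0% and 13.3% beside the same shares of all genes, and 1 was higher in the stomach when any library other than stomach replicate 3 was left out. *S100a9*, a neutrophil and keratinocyte calprotectin subunit, was at 1.20, 1.75 and 189 CPM in the tongues, and its call (adjusted p = 0.0342) did not hold without tongue replicate 3 (adjusted p = 0.16) or without any 1 of the stomachs (0.0928 to 0.108).

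Proteases of mucosal mast cells were higher in the stomach. *Mcpt1*, a protease of mucosal mast cells, was at 29.6, 36.5 and 18.99 CPM in the stomach and 0, 1.13 and 0.234 CPM in the tongue (5.99 ± 0.96, adjusted p = 0.00304), and *Mcpt2* differed by 6.61 ± 0.78 (adjusted p = 0.000936). The connective tissue mast cell proteases *Mcpt4* (2.17, 1.86 and 1.03 CPM against 16.4, 3.38 and 2.11 CPM, adjusted p = 0.0861) and *Cma1* (5.35, 4.74 and 5.54 against 11.1, 2.94 and 1.23 CPM, adjusted p = 0.983) were not called. *Cpa3* was higher in the stomach (2.76 ± 0.66, adjusted p = 0.0154), as was *Dclk1*, a tuft cell kinase (2.41 ± 0.47, adjusted p = 0.00641). Of 27 genes tested, 9 were higher in the stomach and 3 in the tongue, among them *Retnla* and *Ccl8*, or 33.3% and 11.1% beside 15.4% and 15.2% of all genes. The tongue count was 0 without tongue replicate 2 or stomach replicate 2, and 1 without tongue replicate 1 or stomach replicate 3. Of the 15 with at least 10 counts in every library, 2 were higher in the stomach and 4 in the tongue, where 14.4% and 13.8% of all such genes were.

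Epithelial defence genes were present in both tissues with different members. *Defb4*, a beta defensin, had no stomach count and 10.02, 140.5 and 203 CPM in the tongue, at least 1840-fold higher, and *Defb3* was at least 182-fold higher. *Slpi*, an antiprotease of mucosal fluids, was at 66.1, 29.2 and 36.2 CPM against 54.5, 1028 and 2142 CPM, with tongue replicate 1 inside the stomach range (−4.62 ± 1.14, adjusted p = 0.0182). *Ltf*, lactoferrin, was higher in the stomach (11.6, 16.2 and 11.2 CPM against 0.574, 0.188 and 0.527 CPM, 4.88 ± 0.52, adjusted p = 0.000646), as was *Reg3g*, a bactericidal lectin, at a low level (3.49, 2.88 and 1.29 CPM against 0, 0.188 and 0.0586 CPM). *Duox2*, a hydrogen peroxide-forming oxidase, was at 211, 221 and 104 CPM in the stomach and 0.678, 9.70 and 17.7 CPM in the tongue (4.25 ± 0.96, adjusted p = 0.0124), and its paralog *Duox1*, named after its values were seen, at 4.73, 2.28 and 1.5004 CPM and 135, 142 and 115 CPM (−5.54 ± 0.46, adjusted p = 0.000373). The pore-forming gasdermins *Gsdma2* (4.63) and *Gsdma* (−6.05), also named after their values were seen, were likewise higher in opposite tissues. Of the 26 genes with at least 10 counts in every library 9 were higher in each tissue, where 14.4% of all such genes were higher in the stomach and 13.8% in the tongue. Of 52 genes tested out of 66, 17 were higher in the stomach and 23 in the tongue. The shares called, 32.7% and 44.2%, stand beside 15.4% and 15.2% of all genes, and without tongue replicates 2 and 3 the counts were 11 in the stomach and 7 in the tongue.

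**Figure D4:**
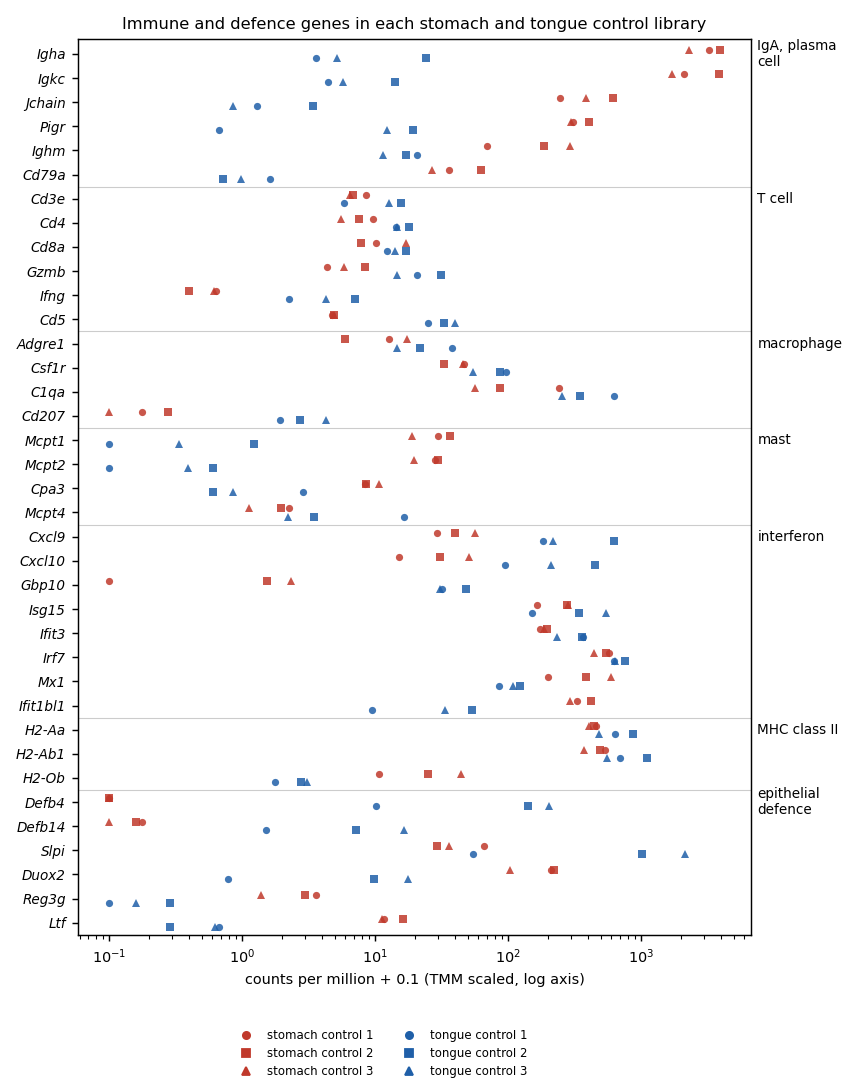
CPM plus 0.1 (horizontal log axis) of immune and epithelial defence genes in each library, with red for the stomach, blue for the tongue and the marker shape for the replicate. The immunoglobulin and mucosal mast cell genes lie to the right in the stomach and *Cxcl9*, *Gbp10* and *Defb4* in the tongue, while *Isg15* and *Irf7* of both tissues lie close together.

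Interferon-stimulated genes, which interferon induces through its receptors, were detected in both knockout tissues and mostly not called. *Isg15*, a ubiquitin-like modifier, was at 165, 278 and 285 CPM in the stomach and 152, 339.7 and 549.6 CPM in the tongue (adjusted p = 0.466). *Irf7* was at 581, 543 and 447 against 625, 759 and 637 CPM (adjusted p = 0.418), and *Ifit1*, *Ifit3* and *Zbp1* were not called, with adjusted p of 0.403, 0.0722 and 0.201. *Cxcl9*, a T cell attracting chemokine, was at 29.01, 40.3 and 56.2 CPM against 183, 628 and 219 CPM (−3.04 ± 0.55, adjusted p = 0.0049). *Cxcl10* was at 14.97, 30.96 and 50.5 CPM against 95.04, 451 and 209 CPM (−2.97 ± 0.66, adjusted p = 0.0113), and *Gbp10*, a guanylate-binding protein, differed by −4.86 ± 0.88 (adjusted p = 0.005). Tongue replicate 2 was the highest for these chemokines. *Mx1*, an antiviral GTPase, was higher in the stomach (201, 388 and 599 CPM against 85.3, 124 and 109 CPM, 1.90 ± 0.43, adjusted p = 0.0121), as was *Ifit1bl1* (3.44 ± 0.60, adjusted p = 0.00434). Of 84 genes tested, 6 (7.14%) were higher in the stomach and 17 (20.2%) in the tongue, beside 15.4% and 15.2% of all genes, with a median of −0.36 against −0.002 over all genes. The tongue count was 7 without tongue replicate 2 and 8 without stomach replicate 2. The stomach count was 2 without tongue replicate 1, tongue replicate 3 or stomach replicate 2, and 3 without tongue replicate 2. Calls over all genes fell as well, from 2590 in the stomach and 2565 in the tongue. They were 1688 and 1715 without tongue replicate 2, and 1888 and 1898 without stomach replicate 2. With the replicate number as a block, 3 interferon-stimulated genes were higher in the stomach and 14 in the tongue. Members of these gene families are near-copies of one another (*Ifit3* and *Ifit3b*, *Tgtp1* and *Tgtp2*), and *Cxcl10* overlaps *Art3* on the other strand.

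The promoters of *Cxcl10* (chr5:92348890-92349139, minus strand) and *Gbp2* (chr3:142620413-142620662, plus strand), an interferon-stimulated gene with a difference of −1.83 (adjusted p = 0.0119) named after its values were seen, are shown with the interferon-stimulated response element (ISRE), taken as GAAA, any pair of bases and GAAA again on either strand, and the 3 motifs above in capitals.
*Cxcl10*: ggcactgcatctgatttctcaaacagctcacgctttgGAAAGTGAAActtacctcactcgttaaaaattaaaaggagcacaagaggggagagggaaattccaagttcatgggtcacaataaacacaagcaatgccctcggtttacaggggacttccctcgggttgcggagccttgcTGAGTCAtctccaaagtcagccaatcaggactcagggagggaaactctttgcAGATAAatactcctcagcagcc
*Gbp2*: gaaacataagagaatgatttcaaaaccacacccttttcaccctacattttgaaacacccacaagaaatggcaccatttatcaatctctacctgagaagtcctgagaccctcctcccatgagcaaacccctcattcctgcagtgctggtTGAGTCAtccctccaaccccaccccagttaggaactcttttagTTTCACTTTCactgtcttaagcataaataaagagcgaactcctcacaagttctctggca
The ISRE match began 213 bases before the start of *Cxcl10* and 59 before that of *Gbp2*. Of 81 promoters of 65 interferon-stimulated genes, 44.4% held this element within 250 bases, against 2.98% of all promoters. It was found in 8 of 14 promoters of the genes higher in the tongue and in 3 of 6 of those higher in the stomach.

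Core genes of the DNA-sensing pathway were not called. *Cgas*, the sensor, was at 1.008, 4.32 and 5.02 CPM in the stomach and 5.53, 8.20 and 7.32 CPM in the tongue (adjusted p = 0.232), and *Tmem173*, which encodes STING, at 6.90, 9.66 and 11.3 CPM against 14.5, 16.7 and 11.4 CPM (adjusted p = 0.192). *Tbk1*, *Irf3* and *Ifnar1* had adjusted p of 0.56, 0.571 and 0.404, and a p above the threshold does not show equal levels. *Ifnb1* had no stomach count and was at 0.313, 0.1251 and 0.293 CPM in the tongue, near the limit of detection and not tested. *Enpp1*, which degrades the second messenger cGAMP, was higher in the stomach (34.6, 23.3 and 26.4 CPM against 7.78, 3.44 and 4.28 CPM, 2.44 ± 0.38, adjusted p = 0.00277), and *Socs1*, a feedback inhibitor, in the tongue (−2.24 ± 0.69, adjusted p = 0.0411) in overlapping ranges. Of 32 genes tested, 3 were higher in the stomach, *Enpp1* and the interferon gamma receptor genes *Ifngr1* and *Ifngr2*, and 4 in the tongue, *Socs1*, *Dnase1l2*, *Samhd1* and *Ikbke*. These are 9.38% and 12.5% of the list, below the 15.4% and 15.2% of all genes tested, and the tongue count was 2 without tongue replicate 2, tongue replicate 3 or stomach replicate 3 and 0 without tongue replicates 2 and 3. The M7core genes, which the study defined from cGAS-STING activated cells outside these 6 libraries, had 19 higher in the stomach (11.9%) and 31 in the tongue (19.5%) of 159 tested, beside 15.4% and 15.2% of all genes, with a median of −0.12. Without tongue replicate 1, 2 or 3 in turn, the stomach count was 9, 10 and 8 and the tongue count 21, 12 and 19. The counts over all genes were then 2147, 1688 and 1812 in the stomach and 2226, 1715 and 1918 in the tongue. Without stomach replicate 2 the M7core counts were 9 and 16, and those over all genes 1888 and 1898.

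MHC class II genes of antigen presentation were not called for the main chains. *H2-Aa* was at 457, 447 and 406 CPM against 644, 879.8 and 483 CPM (adjusted p = 0.213), and *Cd74* and *H2-Ab1* had adjusted p of 0.57 and 0.175. *H2-Ob* and *H2-Oa*, the B cell modulators of peptide loading, were higher in the stomach (3.44 ± 0.56 and 2.89 ± 0.66, adjusted p = 0.00325 and 0.013). Of 15 genes, 4 were higher in the stomach, the others being *Ifi30* and *H2-DMb2*, and 0 in the tongue, or 26.7% and 0% beside 15.4% and 15.2% of all genes. The stomach count was 2 without tongue replicate 3 and 1 without tongue replicates 2 and 3.

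**Figure D5:**
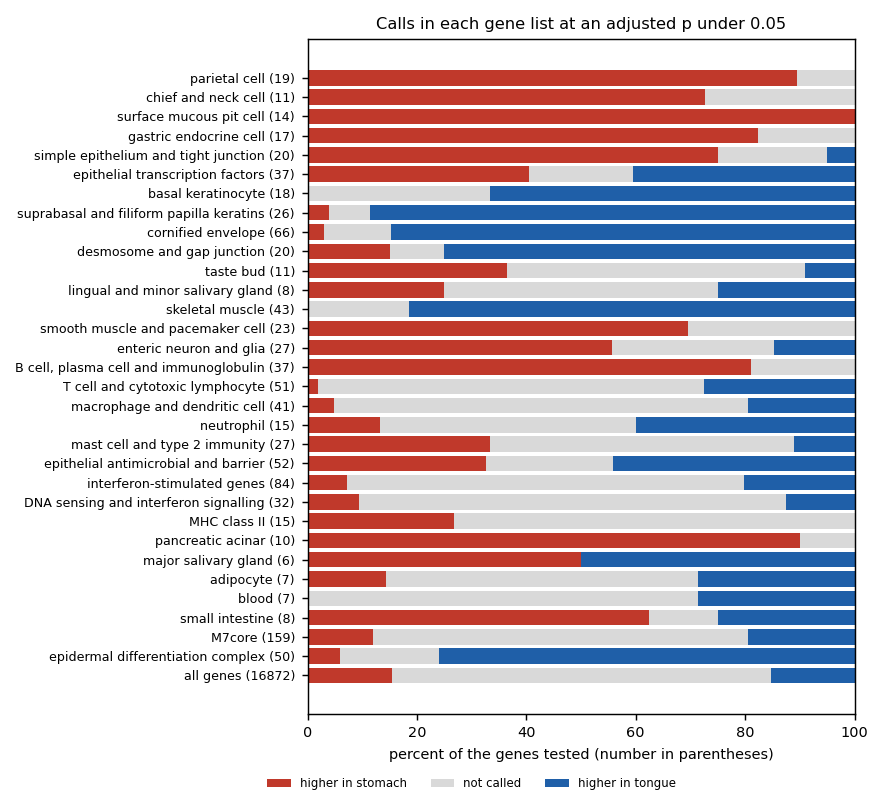
Percent of the genes tested in each list (number in parentheses) that were higher in the stomach (red), not called (grey) or higher in the tongue (blue) at an adjusted p under 0.05, with all genes at the bottom. The gastric, smooth muscle and B cell lists are mostly red, the squamous and skeletal muscle lists mostly blue, and the interferon-stimulated and DNA-sensing lists mostly grey.

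Lists for tissue that could be carried along gave the following. Of 20 pancreatic acinar genes 10 were tested and 9 were higher in the stomach (90.0%, beside 15.4% of all genes). Only 1 of the 10 had at least 10 counts in every library, and it was higher in the stomach. *Clps* was at 2945, 1211 and 987 CPM and *Cpb1* at 1.32, 0.960 and 1.24 CPM in the stomach. The acinar markers *Cpa1*, *Cela2a*, *Prss2* and *Pnlip* were each at most 0.853 CPM in every library. Of 14 small intestine genes 8 were tested, with *Fabp2*, *Alpi*, *Apoa1*, *Apoa4* and *Lct* higher in the stomach and *Ada* and *Slc5a1* in the tongue. These are 5 and 2 of the 8 tested, beside 15.4% and 15.2% of all genes. The direction was reversed among the 3 with at least 10 counts in every library. Of these, 1 was higher in the stomach and 2 in the tongue, where 14.4% and 13.8% of all such genes were. *Sis* was at 0 in all libraries, and *Fabp2* was at 122, 50.6 and 9.88 CPM in the stomach. Of 13 adipocyte genes 7 were tested, with *Cidec* higher in the stomach and *Plin4* and *Lpl* in the tongue. These are 14.3% and 28.6% of those tested, beside 15.4% and 15.2% of all genes. Without stomach replicate 2 the counts were 5 and 1 of 11 tested, and without tongue replicate 1 they were 2 and 2. *Adipoq* was at 3.34, 0 and 2.64 CPM in the stomach and 0, 0.0626 and 0.117 CPM in the tongue. Of 10 matched blood genes 7 were tested, with *Alas2* and *Pf4* higher in the tongue (28.6%, beside 15.2% of all genes). None was without tongue replicate 1, stomach replicate 2 or stomach replicate 3, and 5 were with the replicate number as a block. *Hba-a1* was at 119, 22.98 and 14.95 CPM against 299.7, 55.5 and 69.6 CPM.

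The same tissues of SN-011 treated knockouts, 3 stomachs and 3 tongues that share no library with the comparison, were fitted alone. All of these held 1143 to 1522 counts of *Ddx3y* and at most 20 of *Xist*. Each control group had 1 library with *Xist*, so the treatments differ in sex make-up here and below. Of the 2590 genes higher in the control stomach, 2028 (78.3%) were called the same way there, and of the 2565 higher in the control tongue, 1950 (76.0%), where 23.4% and 22.1% of all genes tested were called in these directions. Calls in the opposite direction numbered 2 and 5. *Atp4a*, *Pgc* and *Muc6* differed by 10.54, 11.52 and 9.18 in the SN-011 samples (adjusted p = 6.79e-05, 0.000345 and 6.4e-05), with *Pgc* at 10.7, 3.29 and 21.2 CPM in the tongues on the 24-library scale. *Igha* and *Myh4* were again higher in the stomach and tongue, at 1268, 918 and 1667 CPM and 7216, 7698 and 6997 CPM in these tissues. *Cxcl9* and *Cxcl10* again differed, by −3.46 and −2.49 (adjusted p = 9.88e-05 and 0.000623), while *Mx1* was not called (1.32, adjusted p = 0.0787).

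The tissue differences of *Krt5* and *Trp63* were smaller between the SN-011 tissues by value. *Krt5* was at 75.7, 46.8 and 33.7 CPM in the control stomachs and 424, 109 and 245 CPM in the SN-011 stomachs on the 24-library scale, and *Trp63* at 4.43, 4.07 and 4.02 CPM and 30.2, 9.30 and 17.2 CPM. The tissue difference of *Krt5* was −5.77 in the controls and −3.83 in the SN-011 samples, and that of *Trp63* −5.29 and −2.93. Tested as an interaction of tissue and treatment over the 12 stomach and tongue libraries, neither change passed the threshold (adjusted p = 0.208 and 0.121). Over 18644 genes the interaction was called for 1 gene, 0.00536%, and 2939 had an unadjusted p under 0.05.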

How the data were processed

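Poly(A)-enriched RNA of stomach and tongue was sequenced as paired reads by a strand-specific protocol, according to the methods of the study. The authors deposited raw read counts per Ensembl gene, with no normalization. The submitters' processing notes name HISAT2, HTSeq and mm10, whereas the methods name featureCounts on uniquely mapped pairs, and the annotation release is not given in the sources used here. Of 54532 gene IDs, 54495 matched GENCODE M21 (GRCm38), which gave symbols, positions and exon lengths.

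From these counts, genes were kept by edgeR's filterByExpr (at least 10 counts scaled to the median library, 15 in total) and tested in the 6 libraries with TMM factors and the quasi-likelihood test, edgeR 4.0.16 in R 4.3.3, with Benjamini-Hochberg adjustment. A fitted difference uses a prior count of 0.125. Python 3.11.15, pandas 2.3.3, scipy 1.17.1 and matplotlib 3.10.9 made tables and plots. The test was checked on simulated counts. Depth was 16088960 to 17268835 counts per library. The SN-011 libraries were fitted alone, and the interaction over both treatments in these tissues.

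The libraries, gene lists and rule for named genes were chosen with earlier results of these data known. Named genes were the markers of each list, up to 3 more per list with the largest difference, and the 10 largest called differences in each direction without overlap at 100 CPM or more in the higher tissue. Other genes were named after their values were seen, to name counts of 5 or fewer. Alternatives were DESeq2 1.42.0 and its size factors, library size alone, no filter, 10 counts in every sample, the joint fit, edgeR's exact test, a prior count of 2, a log2 difference of at least 1, a fit without the 10 most abundant genes of each sample, the replicate block, each library left out and, chosen after seeing the data, both tongue replicates 2 and 3 left out. Results for a few list members are not reported here, although the list counts include them.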

Additional observations from a re-analysis of the deposited data

Results flagged for a closer look

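1 gene stood out by the test of the interaction between tissue and treatment. *Atg9b*, of the autophagy machinery, was at 1.87, 3.29 and 1.60 CPM in the control stomachs and at 167, 161 and 206 CPM in the control tongues, on the scale set over all 24 libraries. In the SN-011 samples it was at 27.8, 21.6 and 22.6 CPM in the stomach and at 222, 229 and 200 CPM in the tongue. The tissue difference was therefore −6.25 in the controls and −3.07 in the SN-011 samples, and the change fitted over all 12 libraries was −3.14 on the log2 scale (edgeR's quasi-likelihood test, adjusted p = 0.027). Groups did not overlap in either treatment, and squamous transcripts such as those of *Trp63* were also higher in the SN-011 stomachs. Sex make-up differed between the treatments as well. The part of either in this result was not tested.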

How the results depend on the processing

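The counts of 2590 genes higher in the stomach and 2565 in the tongue depended most on the libraries and on the size asked for. When a log2 difference of at least 1 was tested, they were 1367 and 1423. Without tongue replicates 2 and 3 they were 897 and 919, with 1741 of 1816 calls shared with all 6 libraries. The joint fit of all 24 libraries called 3951 higher in the tongue. Leaving out each library in turn gave 1688 to 2754 genes higher in the stomach and 1715 to 2809 in the tongue. The same-numbered stomach and tongue libraries deviated together by r = 0.059, 0.228 and −0.117 over 10648 genes, and the main test did not pair samples. Sex did follow the number. Control replicate 1 alone held *Xist* in muscle and heart too (3060 and 7028 counts, at most 5 in control replicates 2 and 3). Same-numbered libraries may thus come from the same mouse, which is not stated. With the replicate block, 2048 genes were higher in the stomach and 2153 in the tongue. Not every library correlated best with its own number. Library size in place of TMM factors moved the median of all genes to −0.078.

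List medians that changed sign were those of lingual gland (−1.33), major salivary gland (−2.33), mast cell (−0.11) and small intestine genes (−4.66) with at least 10 counts in every library, of epithelial transcription factors with no filter (0.24), in the joint fit (0.12) and without tongue replicates 2 and 3 (1.04), of taste bud (1.54), major salivary (−0.012) and M7core genes (0.038) without these tongues, and of adipocyte genes with no filter (0.040), in the joint fit (0.099) and without tongue replicates 2 and 3 (1.43). Without tongue replicates 2 and 3, *Sprr1a* (4.29), *Sprr2d* (5.79), *Sprr3* (0.053), *Plcb2* (0.22), *Cd3e* (0.32), *Foxp3* (0.91), *Cxcl5* (0.91), *Cma1* (−1.10), *Isg15* (0.67) and *Tbk1* (−0.029) changed sign, and *Cma1* also did so with library size alone (−0.11), with no filter (−0.014) and in the joint fit (−0.034). With 1 library left out, the range was −0.44 to 1.31 for *Cma1*, −0.96 to 0.95 for *Cxcl5*, −1.06 to 0.26 for *Foxp3*, −0.0064 to 0.48 for *Itgae*, −1.42 to 0.043 for *Flt3*, −2.38 to 0.22 for *Hba-a2*, and for the medians −2.11 to 2.37 for adipocyte, −0.21 to 0.51 for epithelial transcription factor and −0.25 to 0.17 for taste bud genes. The cause was not tested. Of 187 named genes called, 160 to 174 kept the call with 1 library left out and 128 without tongue replicates 2 and 3, where 2 changed sign. Depth limits genes near 0.174 to 0.186 CPM.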

Other observations

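Some of the 20 genes with the largest differences at 100 CPM or more were not given with values above. *Adamdec1*, a metalloprotease of gut macrophages and stroma, was at 96.3, 105 and 111 CPM in the stomach and 0.157, 0.876 and 0.586 CPM in the tongue (7.60 ± 0.53, edgeR adjusted p = 0.000261). *Phgr1*, a gene of gut epithelium, was at 263, 63.4 and 2.54 CPM against 0, 1.44 and 1.52 CPM (6.81 ± 1.72, adjusted p = 0.0195). *Zg16*, a lectin of mucus that binds bacteria, was at 219.7, 108 and 13.6 CPM against 0.157, 1.502 and 0.879 CPM (7.08 ± 1.18, adjusted p = 0.00362). *Phgr1* and *Zg16*, like *Gast*, were lowest in stomach replicate 3, *Adamdec1* was not, and no tongue library overlapped a stomach library for any of them.

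On the tongue side, *Bpifa5*, of a family of secreted lipid-binding proteins, was at 24.9, 272 and 359.6 CPM with no count in any stomach, at least 3420-fold higher against 3 counts over the group. *2310002L09Rik* and *2310034C09Rik* were at 148, 137 and 112 CPM and 4.12, 175 and 186 CPM, at least 2170- and 1890-fold higher. *Sprr1b* was at 6.47, 253 and 466 CPM, at least 3780-fold higher. All but *2310002L09Rik* were lowest in tongue replicate 1, the library low in upper-layer keratinocyte transcripts.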
